A study of Mus musculus with 12 samples.

Results

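The genes described here are the effector cytokines and chemokines of T cells, a set of 8 given by symbol: *Ifng*, *Tnf*, *Lta*, *Ltb*, *Xcl1*, *Ccl3*, *Ccl4* and *Ccl5*. All 8 of them were among the 13780 genes of the table, and all 8 passed the filter on low counts that left 13767 genes. RNA-seq had been carried out on 12 libraries of CD8+ T cells from the spleens of wild type C57BL/6J mice aged 8 to 12 weeks. The cells had been isolated with magnetic beads by positive selection for CD8, and each library within a group came from a different donor mouse. Naïve cells (4 libraries) had been frozen directly after isolation. Both activated groups (4 libraries each) had been cultured for 72 h in the presence of recombinant human IL-2 (10 U/ml) and Dynabeads carrying antibodies to CD3 and CD28, either in plain media or with 40 mM sodium lactate added. The media control received no other sodium salt, so the sodium and the osmolality differed together with the lactate and cannot be told apart from it.

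Activated CD8+ T cells control infected and malignant cells by direct killing and by secreting cytokines. Interferon-γ, encoded by *Ifng*, raises antigen presentation and activates macrophages. TNF, lymphotoxin-α (*Lta*) and lymphotoxin-β (*Ltb*) are related ligands of the TNF superfamily: TNF and lymphotoxin-α trimers bind the same TNF receptors, whereas lymphotoxin-β holds lymphotoxin-α at the cell surface in a complex that binds the lymphotoxin-β receptor. The chemokines of the set recruit other leukocytes, XCL1 through XCR1 on cross-presenting dendritic cells, and CCL3, CCL4 and CCL5 through receptors on monocytes, T cells and other leukocytes. Transcription of most of these genes follows signals of the T cell receptor through NFAT, AP-1 and NF-κB, and the transcripts of several are short-lived because of AU-rich elements in the 3′ untranslated region (UTR).

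Several members lie side by side in the genome (GRCm38, GENCODE release M21). On chromosome 17, *Ltb* (35194439 to 35196320, plus strand), *Tnf* (35199381 to 35202007, minus strand) and *Lta* (35203165 to 35205351, minus strand) follow each other with gaps of 3060 and 1157 bases. On chromosome 11, *Ccl3* (83647844 to 83649355, minus strand) and *Ccl4* (83662584 to 83664683, plus strand) are separated by 13228 bases with no gene between them, and *Ccl5* (83525778 to 83530518, minus strand) ends 117325 bases before *Ccl3*. *Ifng* lies on chromosome 10 (118441046 to 118445892, plus strand) and *Xcl1* on chromosome 1 (164931644 to 164935527, minus strand). The exons of *Ifng* share 336 bases (25.9% of their length) with the same-strand gene *Gm49751*, and those of *Xcl1* share 98 bases (18.7%) with *Gm20743* on the opposite strand. Whether the counting used strand is not given in the sources used here, so reads from these overlaps cannot be assigned with certainty.

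The 250 bases upstream of the RefSeq transcription start (GRCm38.p6) are shown for the 3 neighbours of chromosome 17, which lie within one locus and differed in their response, and for *Ifng*. They are written 5′ to 3′ on the strand of the gene, and capitals mark the NFAT core GGAAA on either strand and, in *Ltb*, the 1 match to the kappaB consensus, whose first bases are also an NFAT core.
Lta, chr17:35205352-35205601, minus strand: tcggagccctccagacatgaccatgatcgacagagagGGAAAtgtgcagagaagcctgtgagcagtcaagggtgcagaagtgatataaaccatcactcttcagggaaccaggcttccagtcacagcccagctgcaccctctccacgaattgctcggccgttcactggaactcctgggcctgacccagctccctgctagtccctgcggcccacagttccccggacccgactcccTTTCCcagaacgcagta
Tnf, chr17:35202008-35202257, minus strand: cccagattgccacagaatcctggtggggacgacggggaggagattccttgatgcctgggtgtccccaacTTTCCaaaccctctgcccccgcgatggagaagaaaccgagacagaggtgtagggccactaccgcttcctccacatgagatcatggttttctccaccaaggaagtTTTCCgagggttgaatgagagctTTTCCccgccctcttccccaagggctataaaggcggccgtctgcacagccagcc
Ltb, chr17:35194257-35194506, plus strand: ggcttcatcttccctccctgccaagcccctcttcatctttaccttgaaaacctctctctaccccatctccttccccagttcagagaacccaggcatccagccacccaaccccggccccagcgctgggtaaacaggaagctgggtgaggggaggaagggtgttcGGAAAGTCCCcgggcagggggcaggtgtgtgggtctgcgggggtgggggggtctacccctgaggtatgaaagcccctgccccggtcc
Ifng, chr10:118440796-118441045, plus strand: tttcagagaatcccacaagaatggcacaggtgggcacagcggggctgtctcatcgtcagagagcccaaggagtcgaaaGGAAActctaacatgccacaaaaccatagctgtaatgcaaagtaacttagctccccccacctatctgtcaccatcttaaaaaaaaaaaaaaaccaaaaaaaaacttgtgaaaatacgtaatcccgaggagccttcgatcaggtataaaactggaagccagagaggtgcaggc

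Of the 8 members, 6 had a promoter in the RefSeq table, *Xcl1* and *Ccl3* besides the 4 printed. The NFAT core occurred in all 6, with 3 matches in *Tnf*, 2 each in *Lta* and *Ccl3*, and 1 each in *Ifng*, *Ltb* and *Xcl1*. It was also found in 55.6% of all 32851 promoters of the same length. The kappaB consensus was found in *Ltb* and in 7.25% of promoters. A T-box motif (GGTGTGA, 3.33% of promoters) and a RUNX motif (TGTGGTT, 4.4%) each occurred once, in *Xcl1*. Neither the AP-1 motif TGANTCA (6.75%) nor the hypoxia response element ACGTG (16.6%) was matched in any of the 6 windows. These matches describe the letters of the windows and not binding.

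The 3′ UTR of the principal GENCODE transcript was searched for the AU-rich pentamer ATTTA. The stretches of 30 bases with the most pentamers are shown for *Tnf*, *Ifng* and *Lta*, the members with the nonamer and the 1 with the most pentamers besides *Tnf*, with the pentamers in capitals.
Tnf, bases 437 to 466 of the 3′ UTR: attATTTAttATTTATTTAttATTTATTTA
Ifng, bases 69 to 98 of the 3′ UTR: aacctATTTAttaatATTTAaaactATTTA
Lta, bases 300 to 329 of the 3′ UTR: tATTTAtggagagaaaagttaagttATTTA
Over the whole 3′ UTR, *Tnf* had 8 pentamers, *Ifng* 6, *Ccl3* 5, *Lta* 3, *Ccl4* 2 and *Xcl1* 1, while *Ltb* and *Ccl5* had 0. The nonamer TTATTTATT was matched 5 times in *Tnf* and 1 time in *Lta*. Of 11788 3′ UTRs of genes in the table, 67.1% held the pentamer and 7.41% the nonamer. The 3′ UTRs of *Ltb* (156 bases) and *Ccl5* (199 bases) were among the shortest of the set, with that of *Xcl1* (141 bases). This search was added after the expression values had been seen.

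The libraries held between 14726904 and 21478137 counted reads. The library numbers in the labels fall into a low run (3 naïve, 3 media and 2 lactate libraries) and a high run (1 naïve, 1 media and 2 lactate libraries), and the labels do not say what else differed between the runs. Donor tags in the labels of the activated libraries repeat within a group, although each library within a group came from a different mouse. The tags were therefore read separately for each run. Read so, the activated libraries came from 5 donors, and for 3 of them both conditions were sequenced. The 9 CD8+ T cell markers were detected in all groups, with a summed level of 2500 to 5160 CPM (counts scaled to library size) in naïve, 4170 to 4960 in media and 3340 to 3980 in lactate libraries. Naïve libraries also held markers of other leukocytes: the 8 B cell markers summed to 2280 to 5230 CPM there, 430 to 699 CPM in media and 248 to 331 CPM in lactate, and the 10 dendritic cell markers to 2980 to 5350, 123 to 162 and 68.4 to 115 CPM. For the 11 NK cell markers, several of which CD8+ T cells express as well, the ranges were 176 to 535, 220 to 267 and 330 to 397 CPM, with 2 of them, *Ncr1* and *Klra8*, at 0 in all media libraries. These sums overlapped although most of the 11 markers were lower in activated than in naïve libraries, as given below. The 9 macrophage and granulocyte markers in the table summed to 819 to 1990, 70.7 to 92.4 and 90.5 to 106 CPM, with *S100a8* and *S100a9* at 0 in every activated library. The 4 CD4+ T cell markers summed to 44.3 to 76.5, 48 to 60.7 and 83.7 to 96.6 CPM. The 9 markers of memory-phenotype CD8+ T cells summed to 737 to 1120, 1350 to 1780 and 1500 to 2050 CPM. Naïve is the word of the labels, and no selection for a naïve phenotype is described. In bulk samples, fewer cells of a type and less RNA per cell cannot be told apart.

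To ask how sodium lactate during activation changes these genes, lactate was compared with media. Of the 8 members, 6 were higher with lactate (*Ifng*, *Tnf*, *Lta*, *Xcl1*, *Ccl3* and *Ccl4*), 1 was lower (*Ccl5*), and *Ltb* did not pass the threshold. A gene was called when its adjusted p from edgeR's quasi-likelihood test was at most 0.01. Of all tested genes, 13.9% were called higher and 11.1% lower. For each of the 7 called members the 4 lactate libraries did not overlap with the 4 media libraries, and every lactate library lay above every media library for 23.3% of all tested genes and below for 21.5%. The median log2 fold change was 2.19 over the 8 members and -0.00158 over all genes. With the donor as a block in the model 4 members were called, 3 higher (*Tnf*, *Lta* and *Xcl1*) and 1 lower (*Ccl5*). The shares of all tested genes given above are from the model without the block, and those with it are not given.

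**Figure D1:**
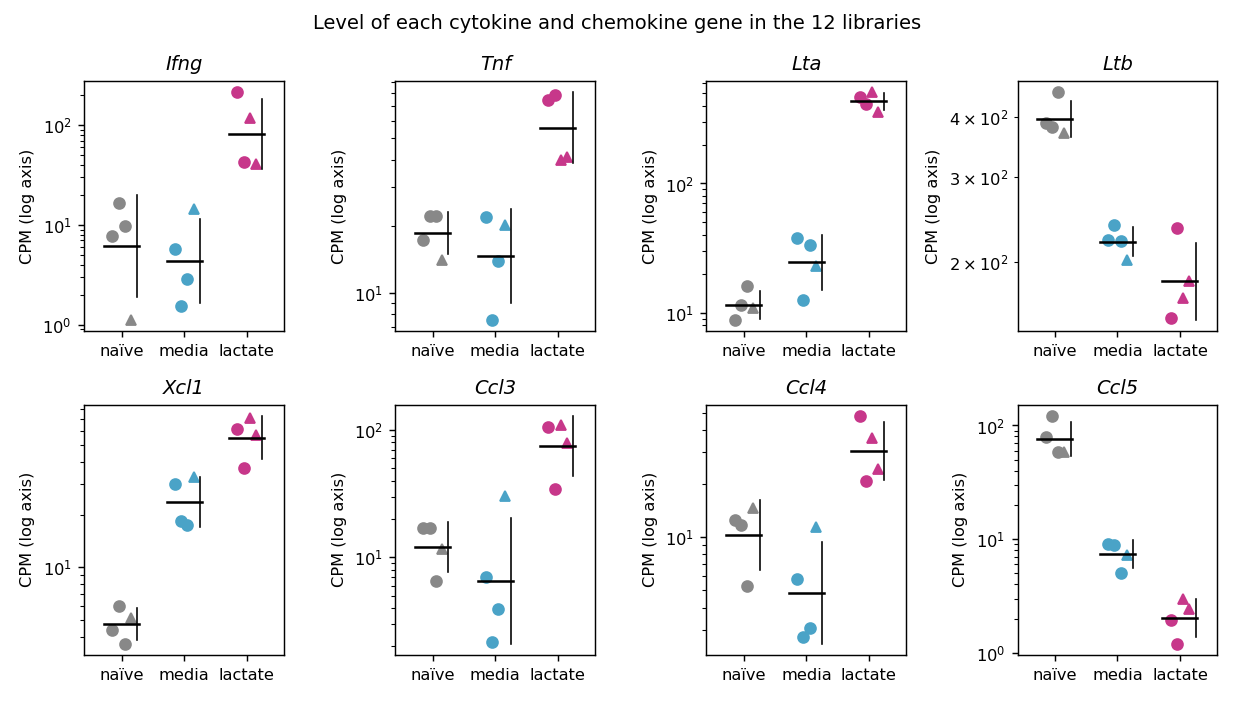
Level of each gene in the 12 libraries, in CPM on a log axis, with 1 panel per gene. Circles are libraries of the low run and triangles of the high run, the horizontal line is the mean of log2 CPM in the group of 4, and the vertical line spans 1 SD of log2 CPM on either side. Lactate libraries lay above all media libraries in 6 panels and below them for *Ccl5*, and in *Ifng*, *Xcl1*, *Ccl3* and *Ccl4* the media library of the high run was the highest of its group.

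*Ifng* was at 213, 43.0, 119 and 40.6 CPM in lactate replicates 1 to 4 and at 5.73, 1.53, 2.84 and 14.5 CPM in media replicates 1 to 4. The lowest lactate library thus lay above the highest media library, media 4, although the levels varied widely within both groups. The log2 fold change was 4.09 ± 0.84 (SE), or 17.1-fold, with an edgeR adjusted p of 0.00239. The exact permutation p was 0.0286, the smallest that the 70 arrangements of 4 against 4 libraries allow. Within the low run the difference of mean log2 CPM was 4.98 and within the high run, which holds media 4, it was 2.26. The fold change ranged from 3.47, without lactate 1, to 4.92, without media 4. With the donor block it was 3.55 with an adjusted p of 0.043, so that the call was lost.

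*Tnf*, which encodes the founding cytokine of its superfamily, was at 74.9, 78.9, 40.0 and 41.0 CPM with lactate and at 22.1, 7.53, 13.9 and 20.3 CPM in media. All lactate libraries were higher, those of the low run (replicates 1 and 2) more so than those of the high run. The log2 fold change was 1.88 ± 0.33 (3.68-fold, edgeR adjusted p = 0.000945), and the differences within the low and high runs were 2.53 and 0.99. The call was kept with the donor block (adjusted p = 0.00728).

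*Lta* was at 468, 409, 508 and 361 CPM with lactate and at 37.5, 12.6, 33.4 and 23.0 CPM in media. The lactate libraries formed a narrow group far above media: the SD of log2 CPM was 0.217 with lactate and 0.708 in media, beside medians over all genes of 0.185 and 0.195. Lactate raised *Lta* by 4.03 ± 0.31 on the log2 scale (16.4-fold, edgeR adjusted p = 4.9e-05), with differences of 4.12 and 4.21 within the runs. Among the members it had the smallest adjusted p of this comparison, and it was called in all 25 alternative analyses.

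*Ltb*, the membrane partner of lymphotoxin-α, was at 154, 235, 169 and 183 CPM with lactate and at 223, 239, 222 and 202 CPM in media. Lactate 2 lay among the media libraries and the other 3 lay below them. The log2 fold change of -0.26 ± 0.13 did not pass the test (edgeR adjusted p = 0.122, exact permutation p = 0.114). The 3 genes of the chromosome 17 locus therefore gave log2 fold changes of 4.03, 1.88 and -0.26.

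*Xcl1* was at 61.7, 36.9, 71.2 and 56.9 CPM with lactate and at 30.1, 18.4, 17.3 and 32.9 CPM in media. The groups were close, with lactate 2 just above media 4, but did not overlap. The log2 fold change was 1.20 ± 0.25 (2.30-fold, edgeR adjusted p = 0.00247), with differences of 1.16 and 0.95 in the low and high runs. It was called with the donor block (adjusted p = 0.00951) and narrowly missed the threshold without media 2 (0.0105) or without lactate 3 (0.0102).

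*Ccl3*, which encodes MIP-1α, was at 106, 34.4, 109 and 79.4 CPM with lactate. In media it was at 7.03, 2.18, 3.90 and 30.4 CPM, so that media 4 came close to lactate 2. The log2 fold change of 2.93 ± 0.69 (7.62-fold) had an edgeR adjusted p of 0.0054, and the differences were 3.91 within the low run and 1.61 within the high run. Leaving out media 4 gave a log2 fold change of 4.21. The call was lost without media 1 (adjusted p = 0.0188), media 2 (0.0136), media 3 (0.0171), lactate 1 (0.015), lactate 3 (0.016) or lactate 4 (0.0124), and with the donor block (2.80, adjusted p = 0.0121).

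*Ccl4*, which encodes MIP-1β, followed the same order of libraries in media, with 5.78, 2.73, 3.07 and 11.3 CPM, against 48.0, 20.7, 36.2 and 24.2 CPM with lactate. Media 4 was again the highest of its group and lactate 2 the lowest. *Ccl4* rose by 2.50 ± 0.46 on the log2 scale (5.65-fold, edgeR adjusted p = 0.00129), by 3.07 within the low run and 1.37 within the high run. The value without media 4 was 3.05. With the donor block it was 2.30 and the call was lost (adjusted p = 0.0158).

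*Ccl5*, the chemokine RANTES, moved the other way, with 1.95, 1.21, 2.97 and 2.41 CPM with lactate and 9.11, 8.95, 5.02 and 7.27 CPM in media. Every lactate library was lower than every media library, on 23 to 50 counts per lactate library and 90 to 197 per media library. The log2 fold change was -1.84 ± 0.32 (3.59-fold lower, edgeR adjusted p = 0.000836), with differences of -2.20 and -1.41 within the low and high runs. The call was kept with the donor block (adjusted p = 0.00797).

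**Figure D2:**
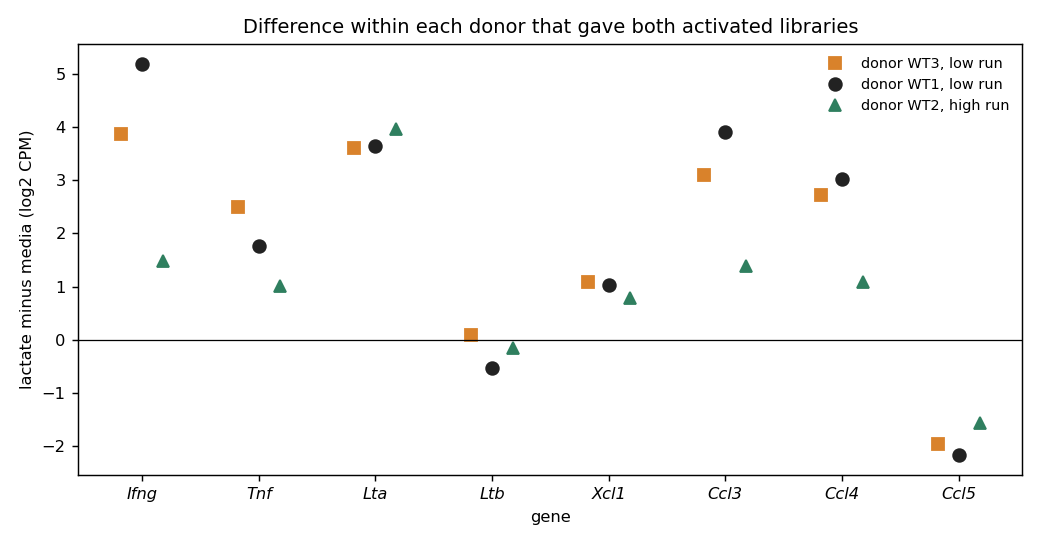
Lactate minus media within each of the 3 donors that gave both activated libraries, in log2 CPM. Squares and circles are donors of the low run and the triangle is the donor of the high run. *Lta* lay between 3.61 and 3.96 in the 3 donors, while *Ifng* ran from 1.48 to 5.19.

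The 3 donors with both libraries gave the same direction for each of the 7 called members, as any pairing of groups without overlap must. *Lta* differed by 3.64 and 3.61 in donors WT1 and WT3 of the low run and by 3.96 in donor WT2 of the high run, all in log2 CPM, and *Xcl1* by 1.03, 1.09 and 0.79. *Ifng* differed by 5.19, 3.87 and 1.48, *Ccl3* by 3.90, 3.10 and 1.38, *Ccl4* by 3.03, 2.71 and 1.08, and *Tnf* by 1.76, 2.50 and 1.01. *Ccl5* differed by -2.16, -1.96 and -1.55, so that for each called member except *Lta* the donor of the high run, which gave media 4, had the smallest difference. *Ltb* differed by -0.54, 0.085 and -0.15, with both signs. With 3 pairs no exact test can reach 0.05. The run by lactate interaction was called for 0 members and 0% of all genes (edgeR). At an unadjusted p under 0.05 it reached 530 of 13767 genes and 0 members, the smallest unadjusted p of a member being 0.0764 for *Ccl5*. The run term of the interaction model was shared by all groups, so that naïve 4 entered it beside media 4. For *Ifng* the interaction was -1.15 on the log2 scale. With a run term fitted to the activated libraries alone, chosen after seeing the data, it was -2.76. The high run holds only 1 media library, so these values do not show that the runs responded alike.

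The spread between libraries was wider for part of the set than for most genes. The SD of log2 CPM of *Ifng* was 1.64 in naïve, 1.36 in media and 1.16 in lactate libraries, and that of *Ccl3* 0.644, 1.61 and 0.777, beside medians over all genes of 0.28, 0.195 and 0.185. *Ltb* was the least variable member in naïve and media libraries, at 0.125 and 0.0986.

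To see how cells activated without lactate differed from naïve cells, media was compared with naïve. The naïve cells had not been cultured, so activation, 72 h of culture and IL-2 cannot be told apart here. Of the 8 members, 2 were higher in media (*Xcl1* and *Lta*) and 2 lower (*Ltb* and *Ccl5*), beside 28.5% and 29.0% of all tested genes, and 4 were not called (*Ifng*, *Tnf*, *Ccl3* and *Ccl4*). The median log2 fold change was -0.40 over the members and -0.0288 over all genes. The summed markers of B cells, dendritic cells and myeloid cells were far higher in the naïve libraries. Of the 11 NK cell markers, 9 were called lower in media than in naïve (median log2 fold change -6.44) and 0 higher. With lactate 8 were called lower than in naïve (median -5.81). The part of these other cells in the differences of the members was not tested.

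*Xcl1* was at 4.40, 6.01, 3.66 and 5.10 CPM in naïve replicates 1 to 4, below all media libraries, and rose by 2.36 ± 0.27 on the log2 scale (edgeR adjusted p = 6.61e-06). *Lta* was at 8.79, 11.4, 15.9 and 10.9 CPM in naïve cells, and naïve 3 lay above media 2. Its log2 fold change of 1.18 ± 0.29 was called (edgeR adjusted p = 0.00286), with an exact permutation p of 0.0571. That call was lost with limma voom (0.0115), in a model of these groups alone (0.0112), and without naïve 1 (0.0114), naïve 2 (0.0123), media 1 (0.0112) or media 3 (0.0104).

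*Ltb* was at 389, 381, 450.0 and 370.2 CPM in naïve cells, above all activated libraries, and was lower in media by a log2 fold change of -0.85 ± 0.13 (edgeR adjusted p = 6.68e-05). *Ccl5* was at 78.7, 121, 58.2 and 58.4 CPM in naïve cells, and the log2 fold change in media was -3.38 ± 0.30 (10.4-fold lower, edgeR adjusted p = 9e-07). Both genes were higher in each naïve library than in any activated one, and both kept their direction within each run.

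The 4 members that were not called had naïve levels that overlapped those in media. *Ifng* was at 7.72, 16.5, 9.86 and 1.12 CPM in naïve cells (log2 fold change -0.53, edgeR adjusted p = 0.573), and its difference was -1.84 within the low run and 3.57 within the high run, where naïve 4 and media 4 were the only libraries. *Tnf* was at 17.2, 22.3, 22.1 and 14.1 CPM (-0.25, 0.516), with -0.62 and 0.52 within the runs. *Ccl3* was at 17.0, 16.9, 6.52 and 11.7 CPM (-0.27, 0.737), with -1.63 and 1.38. For these 3 genes the sign thus differed between runs. *Ccl4* was at 12.5, 11.7, 5.28 and 14.6 CPM (-0.95, edgeR adjusted p = 0.0806), and without media 4 it was called lower (-1.57, adjusted p = 0.00558).

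**Figure D3:**
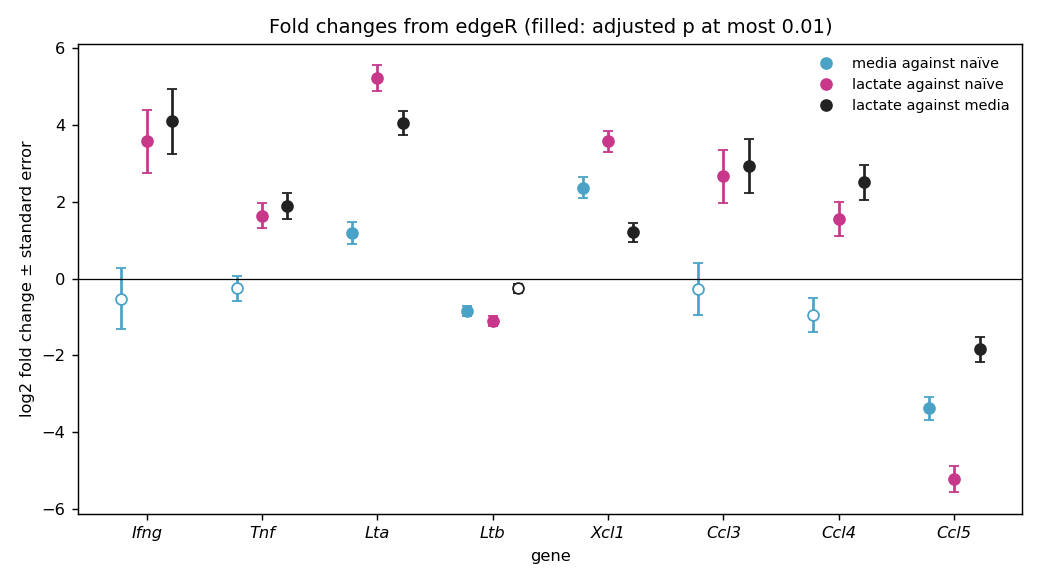
Log2 fold change with its standard error from edgeR for the 8 genes in the 3 comparisons. Filled points had an adjusted p of at most 0.01. Without lactate only *Xcl1* and *Lta* were called higher than naïve among the 8, while with lactate 6 were, up to 5.21 for *Lta*, and *Ccl5* reached -5.22. The comparisons share libraries.

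Cells activated with lactate were also compared with naïve cells, and all 8 members were called, 6 higher (33.0% of all tested genes were called higher) and 2 lower (32.0% were called lower). The naïve libraries enter this comparison and the preceding one. *Lta* had the largest increase of the set (log2 fold change 5.21 ± 0.33, edgeR adjusted p = 3.73e-08). *Ifng* and *Xcl1* were each higher by 3.56 (0.0016 and 1.92e-07), *Ccl3* by 2.66 (0.00348), *Tnf* by 1.63 (0.000608) and *Ccl4* by 1.55 (0.00695). *Ccl5* was lower by -5.22 ± 0.34 (37.3-fold, 4.56e-08) and *Ltb* by -1.10 ± 0.13 (5.47e-06). In the model with the donor block the calls of *Ifng* (2.89, edgeR adjusted p = 0.0166) and *Ccl4* (1.27, 0.0265) were lost, although that block pairs no naïve library, because their donors are not tied to those of the activated cells. The call of *Ccl4* was also lost with DESeq2's size factors (0.0103), and without naïve 1 (0.0143), naïve 2 (0.0192), naïve 3 (0.0262), media 1 (0.0104), lactate 1 (0.0261), lactate 3 (0.0217) or lactate 4 (0.0109). That of *Ccl3* was lost without naïve 3 (0.0136) or lactate 3 (0.0112).

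The make-up of the set was compared per length, in TPM, which divides the counts by gene length before scaling. The members summed to 1411 ± 78.9 TPM (SD, n = 4) in naïve, 891 ± 111 TPM in media and 2594 ± 543 TPM in lactate libraries. Shares of the sum were taken in each library and then averaged over the group. *Ltb* was the most abundant member in naïve cells, at 895 ± 79.9 TPM with a mean share of 63.6%, and in media, at 507 ± 47.7 TPM with a mean share of 57.9%. With lactate *Lta* was the most abundant at 997 ± 154 TPM with a mean share of 38.8%, and *Ltb* came next at 386 ± 79.2 TPM with a mean share of 15.6%. The ratio of *Lta* to *Ltb* TPM had a median of 0.0325 in naïve, 0.145 in media and 2.73 in lactate libraries, and did not overlap between the groups (0.0248 to 0.0389, 0.0577 to 0.185 and 1.90 to 3.34).

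In naïve cells *Ccl5* ranked after *Ltb* at 279 ± 94.0 TPM, and *Ccl3*, *Ccl4*, *Tnf*, *Xcl1*, *Lta* and *Ifng* followed at means of 57.8 down to 22.7 TPM, with overlapping ranges between neighbours. In media *Xcl1* came after *Ltb* at 163 ± 49.6 TPM, followed by *Lta* at 67.0 ± 29.3 TPM, and *Ccl3*, *Tnf*, *Ccl4*, *Ccl5* and *Ifng* lay at means between 47.8 and 16.1 TPM with overlapping ranges. With lactate *Xcl1* (341 ± 82.4 TPM), *Ccl3* (338 ± 143 TPM) and *Ifng* (257 ± 210 TPM) overlapped with each other and with *Ltb*, followed by *Ccl4* at 155 ± 64.0 TPM and *Tnf* at 114 ± 45.3 TPM. *Ccl5* was the lowest member there at 6.95 ± 2.22 TPM, below every library of the other 7. Among the CC chemokines, the ratio of *Ccl3* to *Ccl5* TPM was 0.14 to 0.27 in naïve, 0.306 to 5.24 in media and 35.7 to 68.4 in lactate libraries.

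**Figure D4:**
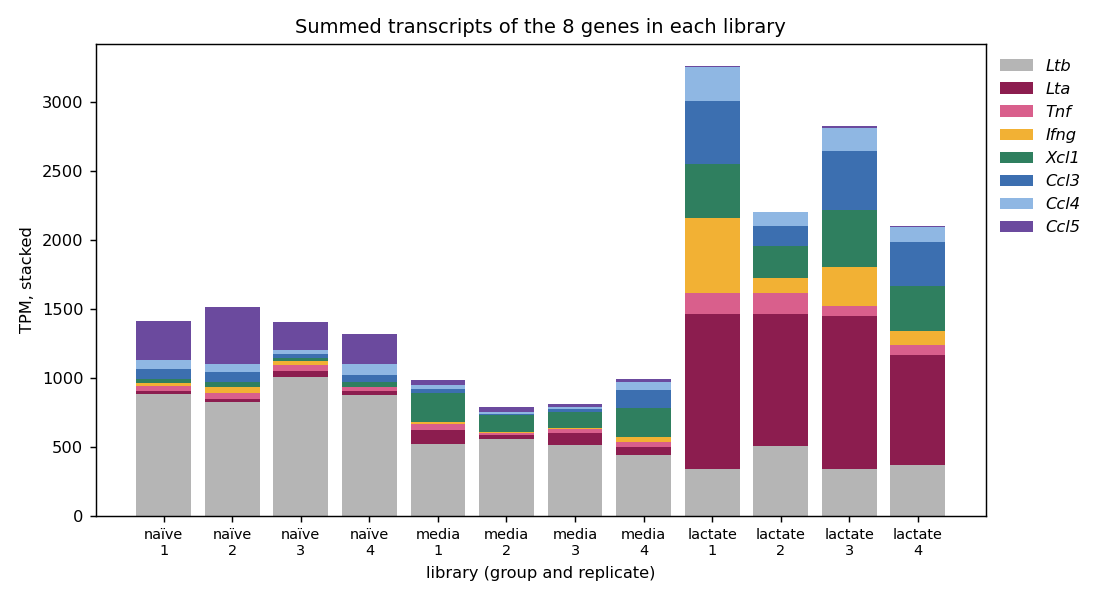
TPM of the 8 genes stacked for each of the 12 libraries, from 0. The grey segment of *Ltb* made up on average 57.9% of the sum of a media library and the dark segment of *Lta* 38.8% of that of a lactate library, and the *Ccl5* segment of the naïve libraries was hardly visible with lactate. The sums with lactate were 2102 to 3254 TPM and those in media 784 to 992 TPM.

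Other secreted ligands were examined for lactate against media, where 13.9% of all tested genes were called higher and 11.1% lower. Of 11 other cytokines, 1 was higher and 2 were lower. *Il3*, a growth factor for blood progenitors, rose by 4.18 ± 0.62 on the log2 scale (edgeR adjusted p = 0.000323), from 2 to 10 counts per media library to 55 to 141 counts per lactate library. *Il16* (-0.76, 9.83e-05) and *Il12a* (-1.97, 0.00191) fell, *Il12a* on only 8 to 13 counts per media library and 1 to 4 per lactate library. Of 10 other chemokines, *Ccl9* was called higher (3.44, adjusted p = 0.00697), at a mean of only 0.81 CPM with lactate, and *Cklf* fell (-1.05, 0.00166). For *Ccl9* the groups overlapped (exact permutation p = 0.0571), with 0 to 2 counts per media library and 2 to 33 per lactate library. Of 9 other TNF superfamily ligands, *Tnfsf11*, which encodes RANKL, rose from a mean of 9.61 to 36.5 CPM (1.92, 0.00191). The median log2 fold changes of these 3 lists were 0.87, 0.56 and 0.63.

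Of 9 receptors of the members, 0 were higher and 1 was lower with lactate than in media, beside 13.9% and 11.1% of all tested genes. *Tnfrsf14*, the receptor HVEM, which binds lymphotoxin-α besides LIGHT and BTLA, had mean levels of 54.8 CPM in naïve, 21.3 in media and 8.60 in lactate libraries (log2 fold change -1.30 ± 0.20 for lactate against media, edgeR adjusted p = 0.000377). The interferon-γ receptor chains gave -1.42 for *Ifngr1* (adjusted p = 0.018) and -1.04 for *Ifngr2* (0.0284), and were called lower with DESeq2 (0.00142 and 0.00573), in a model of the activated groups alone (0.000221 and 0.00921) and without naïve 4 (6.54e-05 and 0.0056). With the donor block they were further from the threshold, with edgeR adjusted p-values of 0.186 and 0.102. The TNF receptors *Tnfrsf1a* (-0.21, 0.211) and *Tnfrsf1b* (0.12, 0.722) were not called. *Ltbr* was at means of 0.078 CPM in media and 0.37 CPM with lactate (2.07, adjusted p = 0.0473). Of the chemokine receptors, *Ccr1* was at means of 0.047 and 0.14 CPM (1.59, 0.343), while *Xcr1* had 0 counts and *Ccr3* at most 1 count in any activated library. Against naïve, 7 of the 9 receptors were lower in media and 8 with lactate, and 0 were higher, in libraries where the markers of other leukocytes fell as well. Of all tested genes, 29.0% were called lower and 28.5% higher in media than in naïve, and 32.0% lower and 33.0% higher with lactate.

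Among 21 transcription factors known to act on these genes, 1 was higher and 2 were lower with lactate. Beside each count of this paragraph stand the shares over all tested genes, 13.9% called higher and 11.1% lower. No list was tested against these shares. *Eomes*, a T-box factor of cytotoxic and memory cells, rose from a mean of 4.99 to 18.1 CPM (1.86 ± 0.32, edgeR adjusted p = 0.000783). *Stat4* (-0.70, 0.00592) and *Runx3* (-0.63, 0.00882) fell. Of 14 factors that bind or degrade cytokine mRNAs, *Hnrnpd* (0.50, 0.000492) and *Elavl1* (0.61, 0.00336) rose, and *Zfp36l1* (-0.65, 0.00192) and *Rc3h2* (-1.005, 0.00421) fell. *Hnrnpd* encodes AUF1 and *Elavl1* HuR, both binders of AU-rich elements, *Zfp36l1* is a factor of the tristetraprolin family that recruits the deadenylation machinery, and *Rc3h2* encodes Roquin-2. Of 12 genes of the processing and secretion of the members, *Stx11*, a syntaxin of granule exocytosis, rose (0.74, 0.00432), as did *Furin*, a proprotein convertase (1.16, 0.00589), and 0 fell.

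Among 17 genes of the response to interferon-γ, 1 rose and 5 fell with lactate, beside 13.9% and 11.1% of all tested genes. The median over the list was -0.53 on the log2 scale. *Socs1*, a feedback inhibitor of cytokine signalling, rose from a mean of 40.9 to 112 CPM (1.46 ± 0.33, edgeR adjusted p = 0.00444). *Tap1*, a peptide transporter of antigen presentation, fell from 649 to 310.2 CPM (-1.06, 0.000112), and *Gbp2*, a guanylate-binding GTPase, from 105 to 28.9 CPM (-1.87, 0.001). Of 12 genes of the response to TNF and NF-κB, 0 rose and *Tnfaip3*, which encodes the inhibitor A20, fell (-1.02, 0.000516). With the donor block, the calls of *Il16*, *Cklf*, *Tnfrsf14*, *Eomes*, *Hnrnpd*, *Tap1* and *Tnfaip3* were kept, and those of *Il3*, *Il12a*, *Ccl9*, *Tnfsf11*, *Stat4*, *Runx3*, *Elavl1*, *Zfp36l1*, *Rc3h2*, *Stx11*, *Furin*, *Socs1* and *Gbp2* were lost, with edgeR adjusted p-values from 0.01 for *Elavl1* to 0.125 for *Runx3*. The calls of *Ccl9*, *Stat4*, *Runx3*, *Elavl1*, *Rc3h2*, *Stx11*, *Furin* and *Socs1* were also lost on leaving out 1 of several libraries, with adjusted p-values of up to 0.0315.

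**Figure D5:**
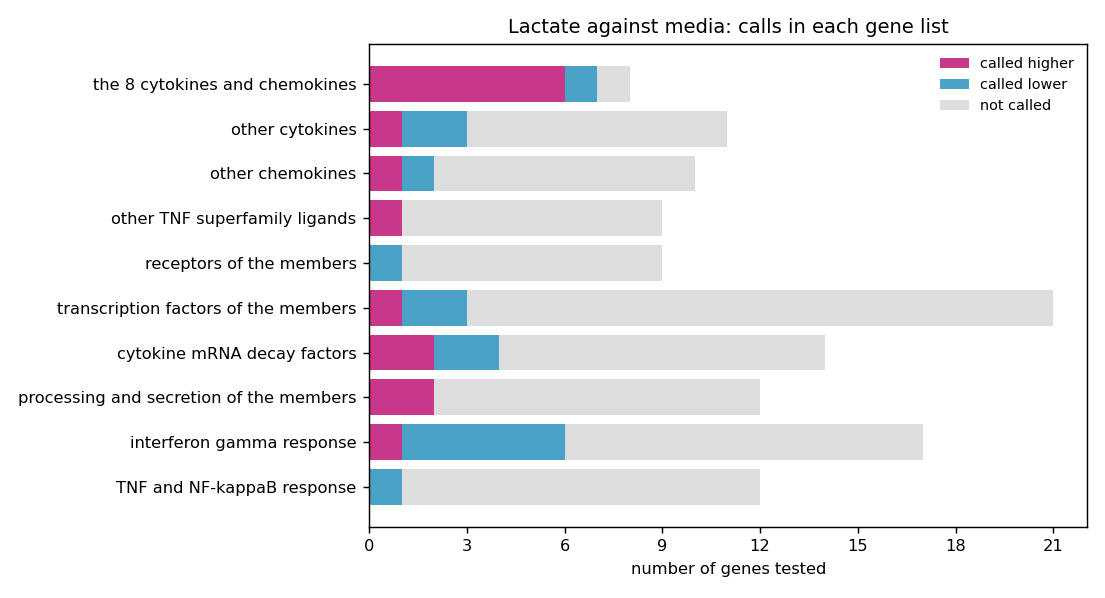
Number of tested genes called higher, called lower or not called for lactate against media in each list. Of the 8 cytokines and chemokines 6 were called higher and 1 lower, and no other list had more than 2 genes called higher. Of all tested genes 13.9% were called higher and 11.1% lower. The calls are from the model without the donor block. The lists differ in size, and they and the members were chosen with earlier results of these data known. The interferon-γ response had 5 called lower.

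The genes whose profile over the 12 libraries was most like that of a member were found by the root mean square difference of centred log2 CPM. For *Ifng* these were *Hbegf* (0.83) and *F2rl2* (0.909), followed by *Gm49751* (1.06), which shares exon bases with *Ifng*. For *Xcl1* they were *Fabp5* (0.334), *Cdh23* (0.342) and *Asf1b* (0.36), and for *Ccl5* they were *Ceacam1* (0.401), a feature listed as *Rin2* and *BC039771* (0.42), and *Rassf4* (likewise 0.42). Mean levels of *Hbegf* were 2.32 CPM in naïve, 1.81 in media and 17.0 in lactate libraries, and those of *Rassf4* were 48.1, 4.19 and 0.98 CPM.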

How the data were processed

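Gene expression was profiled by RNA-seq in 12 mouse CD8+ T cell libraries. The authors demultiplexed with bcl2fastq 2.20.0.422, aligned to GRCm38 with STAR 2.7.5b, removed duplicates and counted uniquely mapped reads over exons, and the deposited table holds raw counts per gene and a gene length. Counts were analysed in R 4.3.3 with edgeR 4.0.16: at least 1 CPM in 3 libraries, TMM scaling, a quasi-likelihood model of 3 groups without block, two-sided tests and Benjamini-Hochberg adjustment over 13767 genes. SE is the log2 fold change over the root of F. CPM are TMM-scaled, log2 CPM used a prior count of 2, and TPM used the table's lengths. The estimated log2 fold changes were checked against planted ones on simulated counts without donor or run effects. Alternatives included DESeq2 1.42.0, limma 3.58.1 (voom), other scalings and filters, run and block terms, and leaving out each library. Title numbers 1 and 4 joined media and lactate libraries of the same donor, and numbers 2 and 3 did not. Deviations of media and lactate libraries of the same donor correlated across genes (0.553, 0.374 and 0.211). Media 2 and lactate 2, from different donors, correlated at 0.297, so these values do not show a donor effect. The donor block counts as the paired analysis because it follows the donor tags of the labels, read separately for each run. Members and lists were chosen with earlier results of these data known. Named were all members, all receptors, and of each other list the 2 called genes with the smallest adjusted p per direction, and for likeness the 3 nearest genes. A gene of the receptor and marker lists is not reported here.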

Additional observations from a re-analysis of the deposited data

How the results depend on the processing

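For lactate against media, 24 of 25 alternatives gave a count of called members within 1.5 times of 7, the exception being the replicate block by donor, with 4, and leaving out 1 library at a time gave 5 to 7. The counts were 3 to 5 for media against naïve and 6 to 8 for lactate against naïve, over all alternatives and on leaving out 1 library, and 0 throughout for the interaction. The block by title number, whose pairs correlated between 0.0038 and 0.553, changed no call of a member. Its pairs 1 and 4 are also donor pairs. For media against naïve, where it was not called, the sign turned for *Ccl3* without media 2 (0.0733) or media 3 (0.0115), in a range from -1.62 without media 4. The blocks were fitted to activated libraries only, with their effects summing to 0, and pair nothing in the comparisons with naïve. For the interaction, which was never called, it turned for *Ifng* without media 4 (2.63) or lactate 1 (0.392) and for *Ccl3* without media 4 (0.604). Media 4 is the only media library of the high run, so that without it the run effect rests on naïve 4 and the value is not a difference between lactate and media within that run. The cause of these changes was not tested. A run term fitted to the activated libraries alone, chosen after seeing the data, gave interactions of -2.76 for *Ifng*, -2.36 for *Ccl3* and 0.837 for *Ccl5*, with edgeR adjusted p-values of 1. Lowest in depth were *Ccl5* with lactate (23 counts) and *Ifng* in naïve 4 (20 counts), where counting error adds to the spread.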

Other observations

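Some genes outside the naming rule were picked after their values were seen. *Lif*, a cytokine of the interleukin-6 family, was at means of 3.49 CPM in naïve, 22.6 in media and 93.2 in lactate libraries (log2 fold change 2.05 ± 0.55 for lactate against media, edgeR adjusted p = 0.0105). *Csf2*, which encodes GM-CSF, was at means of 0.71, 1.28 and 4.03 CPM (1.63 ± 0.67, adjusted p = 0.0698). Within the response to interferon-γ the immunity-related GTPases did not share a sign: *Iigp1* was at means of 24.9 CPM in media and 3.63 with lactate (-2.76, 0.0102), and *Igtp* at 171 and 260.2 CPM (0.61, 0.118).

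Over all tested genes with an annotated 3′ UTR, 12.4% of the 873 with the AU-rich nonamer were called higher with lactate than in media and 15.6% lower, and of the 10910 without it 16% were called higher and 11.8% lower. The median log2 fold changes were -0.06 and 0.0086, and the median 3′ UTR lengths were 2234 and 945.5 bases. For media against naïve, 22.2% of genes with the nonamer were called higher and 35.7% lower, beside 30.1% and 28.8% of those without it. The difference between these classes was not tested. For lactate against media, 14.4% of the 7912 genes with the pentamer were called higher and 13.3% lower. Of the 3871 without it 18.7% were called higher and 9.48% lower, at median 3′ UTR lengths of 1520.5 and 369 bases. This difference was not tested either. *Tnf* and *Lta*, the members with the nonamer, were both called higher with lactate, as were *Ifng*, *Xcl1*, *Ccl3* and *Ccl4*, which lack it.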
